A study of Mus musculus with 8 samples.

Results

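The Eµ-deleted line was a mouse pro-B cell line of 129SV bone marrow origin with the genotype E<mu>-/-, that is, without the intronic enhancer of the immunoglobulin heavy chain (IgH) locus. Its 2 libraries were set against the 6 libraries of 3 other pro-B lines of the same strain and tissue. The lines CBE-/- (1) and CBE-/- (2), both with the genotype IGCR1-/-, lacked the CTCF-binding elements (CBEs) of IGCR1, a control region of the IgH locus, and the fourth line was wild type (WT). All lines were grown without treatment, and each gave 2 libraries of poly(A) RNA. The genes described here are those for which both Eµ-deleted libraries lay above, or both below, all 6 other libraries on the log2(FPKM + 1) scale, leaving out symbols with a locus on chromosomes X and Y. FPKM are fragments of a transcript scaled to its length and to the library's mapped reads, as deposited. By this rule 2186 of 22821 autosomal gene symbols (9.58%) were chosen, 1107 higher (4.85%) and 1079 lower (4.73%). Each genotype other than IGCR1-/- was represented by 1 line, so the effect of the deletion and the identity of the line cannot be told apart. Whether both libraries of a line were grown apart is not stated, and the p-values therefore reflect only differences between libraries, possibly technical ones.

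Pro-B cells are the bone marrow precursors in which the RAG recombinase joins V, D and J gene segments of the IgH locus. Eµ lies in the intron between the J segments and the first constant gene, where it drives transcription of the unrearranged locus and helps to form the centre to which RAG is recruited. IGCR1 lies between the V and D segments, and its CBEs hold the locus in loops that keep the V segments apart from the D and J segments. The deleted elements carry no gene symbol of their own in the files, so the deletions themselves could not be read from these values. The nearest readout was Adam6a and Adam6b, near-identical genes between the V and D segments, which were listed at 0 FPKM in both Eµ-deleted libraries. In the other 6 libraries they were also close to 0, with 0.00751 to 0.0311 FPKM for Adam6a and 0.0545 to 0.123 for Adam6b. They stayed under the filter of 1 FPKM in all 8 libraries and were not tested.

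The line carried the identity its label gives. Of 16 defining genes of pro-B cells, 15 had 1 FPKM or more in both Eµ-deleted libraries, the exception being Kit, the stem cell factor receptor, which was listed at 0 in all 8 libraries. Lists for other cell types had some members on, with 7 of 30 T lineage genes, 9 of 39 myeloid genes and 3 of 21 erythroid genes at 1 FPKM or more in both Eµ-deleted libraries. Lat, a signalling adaptor, had the highest value on the T lineage list, at 150.7 and 173.9 FPKM in the Eµ-deleted libraries and 105.9 to 272.4 in the others. Tlr4, a receptor for bacterial lipopolysaccharide, had the highest on the myeloid list, at 18.3 and 30.5 FPKM, against 6.12 to 20.9. Other members, namely Cd3e, Cd4 and Cd8a of T cells, Elane, Ctsg and S100a8 of granulocytes and Slc4a1 and Car1 of red cells, were listed at 0 in all 8 libraries. The reads implied by the deposited intervals came to 34.85 M and 32.65 M in the Eµ-deleted libraries and 31.3 M to 49.5 M in the others. Summed over all symbols, FPKM came to 516335 and 490867 in the Eµ-deleted libraries and 510136 to 530232 in the others.

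Among the 10146 autosomal genes with at least 1 FPKM in at least 2 of the 8 libraries, both Eµ-deleted libraries lay outside the other 6 for 1659 genes, 16.4% of those tested. Of these, 797 were higher (7.86%) and 862 lower (8.50%). Counted in the same way for each line in turn, 1320 genes set CBE-/- (1) apart, 1922 CBE-/- (2) (18.9%) and 3276 the WT line (32.3%). The number of genes that set the Eµ-deleted line apart thus lay between those of the CBE lines. The remaining 527 chosen genes, 310 higher and 217 lower, did not pass the filter and were not tested. Just inside the rule stood 1810013L24Rik, whose lower Eµ-deleted library exceeded the highest other library by only 0.00013 on the log2 scale, and Ptpra, a receptor tyrosine phosphatase gene, with a gap of 0.00099. Just outside stood Airn and Bmyc, listed at 0 in both Eµ-deleted and both WT libraries.

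**Figure D1:**
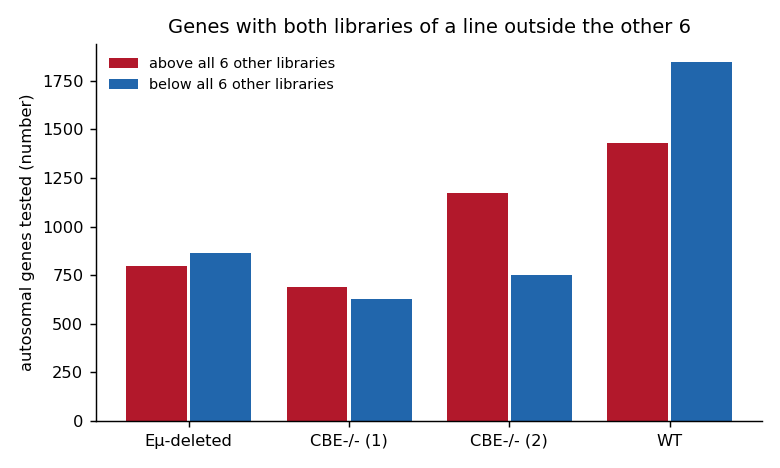
Number of autosomal genes tested (vertical axis, of 10146) for which both libraries of a line lay above (red) or below (blue) all 6 libraries of the other 3 lines. The Eµ-deleted line had 797 above and 862 below, fewer than the WT line in both directions.

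Because such a list contains genes that differ by very little, every gene tested was also compared by limma, on log2(FPKM + 1), in 2 ways. Against the mean of the other 3 lines, 706 genes were higher (6.96%) and 883 lower (8.70%) at a Benjamini-Hochberg adjusted p under 0.05, together 15.7% of the genes tested. With the replicate number as a block these counts were 1284 and 1452. The stricter comparison asked whether the Eµ-deleted line differed in the same direction from each of the 3 other lines, with the largest of the 3 p-values. It called 47 genes higher (0.463%) and 58 lower (0.572%), together 105 genes or 1.03%, and 69 higher and 96 lower with the replicate block, all 105 among them. All 105 lay outside the other 6 libraries. Since the same 8 libraries chose the genes and gave the tests, this is not independent support. Genes with 1 FPKM or more in fewer than 2 of the 6 other libraries passed the filter only through the Eµ-deleted ones. Their calls, with all libraries or in leave-outs, are a description only. For 32 of the higher and 35 of the lower genes, the difference to the nearest line was at least 2-fold. In all 8 fits that each left out 1 library, 26 of the higher and 21 of the lower genes were still called. Below, "called" without further words means this comparison with each line, and the log2 difference given is that to the nearest line, on the log2(FPKM + 1) scale, which understates changes of genes with low values.

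The largest fall relative to the nearest line, on the log2(FPKM + 1) scale, was that of Enpep. It encodes aminopeptidase A, known on mouse B cell precursors as the BP-1 (6C3) antigen and used there to stage early B cells. Enpep (mm9 chromosome 3, 128972095 to 129035667) had 2.00 and 1.18 FPKM in the Eµ-deleted libraries, against 99.2 and 90.1 in CBE-/- (1), 106 and 112 in CBE-/- (2) and 174 and 170.3 in WT. Every other library was far above both Eµ-deleted ones, with no overlap. The log2 difference to CBE-/- (1), the nearest, was -5.22 (SE 0.154, limma adjusted p = 1.84e-05), and the call held in all 8 leave-outs. In these bulk libraries, fewer cells with a transcript and less of it per cell cannot be told apart. The promoter is shown because this surface antigen had the largest difference to the nearest line among the 105 genes. It is a window of 300 bases around the RefSeq start (GRCm38.p6 chr3:129332700-129332999, minus strand), with matches to the TATA box letters TATAAA on either strand in capitals.
Enpep promoter: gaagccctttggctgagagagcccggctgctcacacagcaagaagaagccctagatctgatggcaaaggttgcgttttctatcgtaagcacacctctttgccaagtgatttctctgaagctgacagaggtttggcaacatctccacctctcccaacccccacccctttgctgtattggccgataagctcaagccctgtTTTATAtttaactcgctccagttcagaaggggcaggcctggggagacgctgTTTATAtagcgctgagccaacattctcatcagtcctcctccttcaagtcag
Both matches lie on the strand opposite to the one printed. TATAAA on either strand occurred in 14.2% of 25748 autosomal promoters of this length and in 6.23% of those of tested genes.

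Of the other genes that define the B lineage, those given here were not called against each line. Pax5, the factor that commits cells to the B lineage, had 49.3 and 65.8 FPKM in the Eµ-deleted libraries, against 41.3 and 52.1 in CBE-/- (1), 62.5 and 60.7 in CBE-/- (2) and 38.2 and 38.3 in WT. The Eµ-deleted values of Pax5 overlapped those of other lines. Ebf1, which acts upstream of Pax5, had 58.9 and 64.5 FPKM in the Eµ-deleted libraries, above all others (48.6 and 38.9 in CBE-/- (1), 46.9 and 37.7 in CBE-/- (2), 37.9 and 36.9 in WT). Against the mean of the other lines it was higher by 0.58 (SE 0.120, limma adjusted p = 0.0210), a call lost without Eµ-deleted replicate 2 or either WT library (adjusted p up to 0.127). Against the nearest line the adjusted p for Ebf1 was 0.368. Il7r, the interleukin 7 receptor, and Ctcf, the loop-anchoring factor, were called in neither comparison. Dntt, which adds bases at V(D)J joints, had 56.8 and 48.1 FPKM in the Eµ-deleted libraries, below all others (258 and 134 in CBE-/- (1), 90.2 and 58.0 in CBE-/- (2), 239 and 112 in WT), and replicate 1 exceeded replicate 2 in every line. Its difference from the mean of the others was -1.30 (SE 0.363, limma adjusted p = 0.0575) without the replicate block and was called with it (SE 0.163, adjusted p = 0.00315). Against each line Dntt was not called in either fit (adjusted p = 1.00, or 0.524 with the block).

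The recombinase genes were on in the Eµ-deleted line. Rag2 had 3.96 and 5.38 FPKM, against 2.27 and 1.93 in CBE-/- (1), 3.07 and 1.98 in CBE-/- (2) and 0.0207 and 0.00543 in WT. It was highest in the Eµ-deleted libraries and close to 0 in WT. The difference from the mean of the others was 1.34 (SE 0.150, limma adjusted p = 0.00182, called in all 8 leave-outs), while that to the nearest line, CBE-/- (2), was 0.69 (adjusted p = 0.270). Rag1 had 5.83 and 7.53 FPKM in the Eµ-deleted libraries, within the range of the CBE lines (13.8 and 7.41 in CBE-/- (1), 8.72 and 3.77 in CBE-/- (2)), against 0.0427 and 0.0295 in WT. Rag1 was not called in either comparison (limma adjusted p = 0.123 against the mean).

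Gfi1 and H2-Ab1 stood apart from all other libraries. The zinc finger repressor gene Gfi1 had 5.90 and 8.12 FPKM in the Eµ-deleted libraries, against 2.96 and 3.08 in CBE-/- (1), 1.25 and 1.43 in CBE-/- (2) and 0.401 and 0.481 in WT. H2-Ab1, the beta chain of a class II antigen-presenting molecule, had 18.98 and 21.3 FPKM, against 7.37 and 8.12 in CBE-/- (1), 2.77 and 2.00 in CBE-/- (2) and 0.846 and 0.315 in WT. Neither gene's groups overlapped. Gfi1 was higher than in the nearest line by 0.98 (SE 0.143, limma adjusted p = 0.0311) and H2-Ab1 by 1.27 (SE 0.190, adjusted p = 0.0338). The call of Gfi1 was kept only without Eµ-deleted replicate 1 and was lost in the other 7 leave-outs (adjusted p 0.0572 to 0.151). That of H2-Ab1 was kept only without either WT library, with adjusted p up to 0.213 elsewhere. Cd74, the invariant chain that accompanies class II molecules, was named after its values were seen and did not follow H2-Ab1. It had 7.23 and 9.06 FPKM in the Eµ-deleted libraries, below all others (10.6 in the lowest of CBE-/- (2), 114 in the highest of CBE-/- (1)), with an adjusted p of 1.00 against the nearest line.

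**Figure D2:**
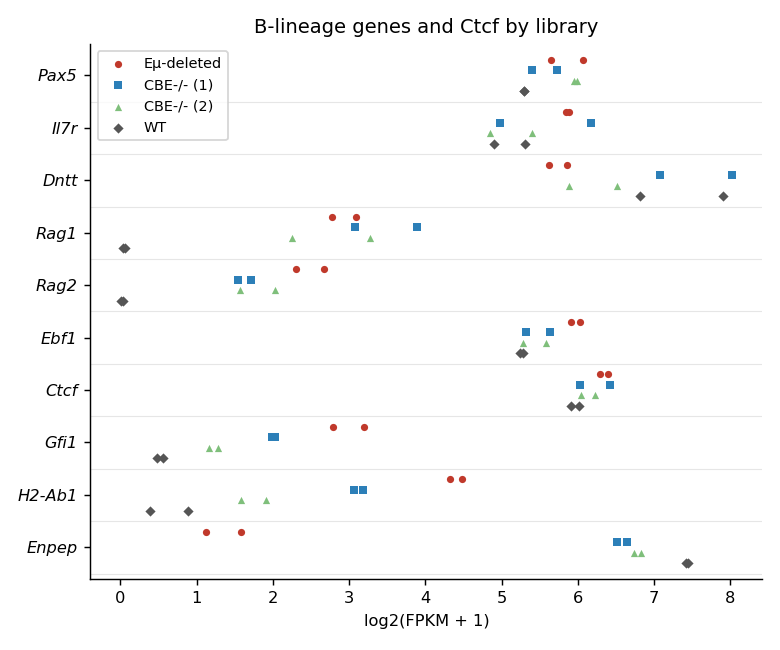
log2(FPKM + 1) in each library (points, 2 per line) for B lineage genes and Ctcf, with the Eµ-deleted line on top within each row, then CBE-/- (1), CBE-/- (2) and WT. Enpep is the only row in which the Eµ-deleted line falls far to the left of all others, and Pax5, Il7r, Rag1 and Ctcf show overlap.

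The metallothionein genes Mt1 and Mt2, both among the 12 largest rises, encode small cysteine-rich proteins that bind zinc and copper and are induced by the metal-sensing factor MTF1. Mt1 (mm9 chromosome 8, 96702989 to 96704227) had 124 and 139 FPKM in the Eµ-deleted libraries, against 4.17 and 5.81 in CBE-/- (1), 15.3 and 13.8 in CBE-/- (2), and was listed at 0 in both WT libraries. Mt2, its neighbour (96696518 to 96697467), had 38.8 and 49.5 FPKM, against 0.2996 and 0.531 in CBE-/- (1) and 1.91 and 3.19 in CBE-/- (2), and was again listed at 0 in WT. The 4 lines kept the same order for both genes, Eµ-deleted, CBE-/- (2), CBE-/- (1) and WT, with no overlap between neighbours. Relative to CBE-/- (2), the nearest, Mt1 rose by 3.09 (SE 0.148, limma adjusted p = 0.000150) and Mt2 by 3.68 (SE 0.202, adjusted p = 0.000297), and both calls held in all 8 leave-outs. Mt3, at 0.350 and 0.211 FPKM, was listed at 0 in the other 6 libraries and was too low to test, and Mt4 was listed at 0 everywhere. Mtf1 itself had 2.81 and 2.84 FPKM in the Eµ-deleted libraries, against 2.17 to 3.07 in the others, and overlapped them (adjusted p = 0.395 against the mean). Slc30a1, a zinc exporter that is likewise an MTF1 target, had 1.17 and 2.47 FPKM, against 1.05 to 2.32 in the others (adjusted p = 0.838 against the mean).

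The Mt1 and Mt2 promoters are shown because these neighbouring genes moved together. Both are 300 bases around the RefSeq start (GRCm38.p6, Mt1 at chr8:94178839-94179138 and Mt2 at chr8:94172368-94172667, plus strand), with matches on either strand to TGCNCNC, letters that include the core of the metal response element, in capitals. This motif was added after the values were seen.
Mt1 promoter: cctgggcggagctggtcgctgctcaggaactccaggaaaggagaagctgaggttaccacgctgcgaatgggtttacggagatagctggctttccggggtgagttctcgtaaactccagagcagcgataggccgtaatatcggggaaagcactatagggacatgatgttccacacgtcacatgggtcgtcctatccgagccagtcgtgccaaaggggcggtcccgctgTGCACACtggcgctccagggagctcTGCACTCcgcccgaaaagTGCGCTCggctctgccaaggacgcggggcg
Mt2 promoter: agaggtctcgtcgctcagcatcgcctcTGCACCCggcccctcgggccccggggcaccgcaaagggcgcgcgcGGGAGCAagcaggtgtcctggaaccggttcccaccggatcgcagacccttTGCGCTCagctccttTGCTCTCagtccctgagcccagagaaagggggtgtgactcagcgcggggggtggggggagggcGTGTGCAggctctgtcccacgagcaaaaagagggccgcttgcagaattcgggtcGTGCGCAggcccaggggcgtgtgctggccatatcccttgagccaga
There were 3 matches in Mt1 and 6 in Mt2. These letters are common, being present in 50.8% of all autosomal promoters and in 59.9% of those of tested genes. Aligned to each other, the promoters had identical bases at 163 of 248 ungapped positions (65.7%).

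**Figure D3:**
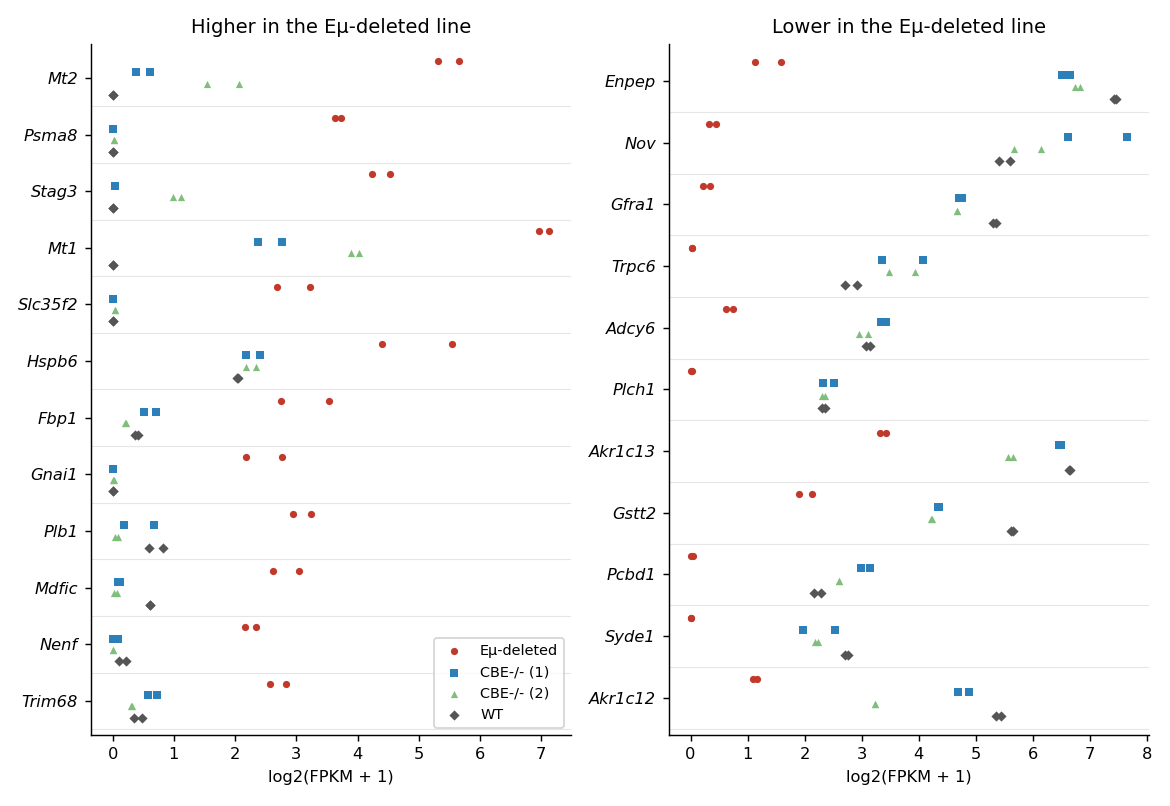
log2(FPKM + 1) in each library (points, 2 per line) for the 12 genes with the largest rise (left) and 11 of the 12 with the largest fall (right) relative to the nearest line, among genes called and with a gene name. In every row both Eµ-deleted libraries (red circles, top of each row) lie apart from the other 6, and in many rows the other lines are near 0 on one of the sides.

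Psma8 and Stag3, genes otherwise known from germ cells, were likewise among the 12 largest rises. Psma8 encodes a testis-specific alpha subunit of the proteasome, and Stag3 the cohesin subunit of meiotic chromosomes. Psma8 had 12.3 and 11.3 FPKM in the Eµ-deleted libraries, against 0 in both libraries of CBE-/- (1), 0.0119 and 0.0110 in CBE-/- (2), and 0.00740 and 0 in WT. Stag3 had 17.8 and 22.1 FPKM, against 0.0329 and 0.0280 in CBE-/- (1), 0.976 and 1.16 in CBE-/- (2), and 0.00548 and 0 in WT. The log2 difference to CBE-/- (2) was 3.66 for Psma8 (SE 0.0844, limma adjusted p = 7.29e-06) and 3.33 for Stag3 (SE 0.120, adjusted p = 4.69e-05), each called in all 8 leave-outs. Outside the Eµ-deleted line both were near 0, except for the low level of Stag3 in CBE-/- (2). Both passed the filter only through the Eµ-deleted libraries, so their calls, with all libraries or in leave-outs, are a description only. Further germ-cell genes were looked up after these values were seen. Dkkl1, a gene of developing sperm, was called, with 2.25 and 3.48 FPKM in the Eµ-deleted libraries, against 0.0189 and 0.0268 in CBE-/- (1), 0.0254 and 0.0233 in CBE-/- (2) and 0.976 and 0.840 in WT. Its call (adjusted p = 0.0361) was lost without any single library of WT or of the CBE lines, with adjusted p up to 0.253. Syce2, a part of the meiotic synaptonemal complex, had 4.94 and 4.65 FPKM in the Eµ-deleted libraries, within the range of the CBE lines (2.98 to 7.18), against 0.119 and 0.0624 in WT. It was called against the mean (0.78, SE 0.104, adjusted p = 0.00381) and not against each line. Other meiotic genes, among them Rec8, Smc1b, Rad21l, Sycp2 and Mael, were listed at 0 in all 8 libraries.

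Genes were counted as switched on where both Eµ-deleted libraries had at least 1 FPKM and the other 6 under 0.1. There were 4, namely Psma8, Slc35f2, Gnai1 and Tmem238. Slc35f2, a solute carrier, had 5.40 and 8.31 FPKM, against 0 in CBE-/- (1) and WT and 0.0226 and 0.0277 in CBE-/- (2) (difference 2.91, SE 0.168, limma adjusted p = 0.000378). Gnai1, an inhibitory G protein alpha subunit, had 3.51 and 5.80 FPKM, against 0.0119 in CBE-/- (2) replicate 1 and 0 in the other 5 (difference 2.46, SE 0.180, adjusted p = 0.00120). Tmem238, a small membrane protein gene, had 2.18 and 1.90 FPKM, against 0.0204 in WT replicate 2 and 0 in the other 5 (difference 1.59, SE 0.0857, adjusted p = 0.000297). These 4 genes passed the filter only through the Eµ-deleted libraries, so their calls, with all libraries or in leave-outs, are a description only. With a limit of 0.5 FPKM in place of 0.1, 15 genes were switched on.

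The other genes among the 12 largest rises had varied roles and stayed low in absolute terms, except Hspb6. Hspb6, a small heat shock protein, had 20.0 and 45.5 FPKM in the Eµ-deleted libraries, against 3.07 to 4.28 in the other 6, the widest spread between Eµ-deleted libraries among the 12. Its rise of 2.68 (SE 0.334, limma adjusted p = 0.0158) lost its call without any single library of WT or of the CBE lines (adjusted p 0.0885 to 0.136). Fbp1, an enzyme of gluconeogenesis, had 10.6 and 5.72 FPKM, against 0.154 to 0.633 in the others (difference 2.53, SE 0.236, adjusted p = 0.00397). Plb1 (a phospholipase), Mdfic, Nenf (a secreted neurotrophic factor) and Trim68 (a ubiquitin ligase) rose by 2.04 to 2.39, with 3.49 to 8.44 FPKM in the Eµ-deleted libraries and under 1 in the others. Each of these 5 passed the filter only through the Eµ-deleted libraries, so their calls, with all libraries or in leave-outs, are a description only.

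On the falling side, Nov and Gfra1 followed Enpep in the size of the difference to the nearest line. Relative to the mean of the other lines, the difference was -5.80 for Nov and -5.58 for Enpep. Nov encodes CCN3, a secreted matrix-associated protein, and had 0.256 and 0.360 FPKM in the Eµ-deleted libraries, against 97.4 and 200.5 in CBE-/- (1), 49.8 and 69.5 in CBE-/- (2) and 47.6 and 41.6 in WT. Gfra1, the co-receptor of the neurotrophic factor GDNF, had 0.163 and 0.268 FPKM, against 25.1 and 26.0 in CBE-/- (1), 24.4 and 24.6 in CBE-/- (2) and 38.4 and 40.1 in WT. Both genes were near 0 in this line alone. Nov fell by 5.12 (SE 0.327, limma adjusted p = 0.000575) and Gfra1 by 4.39 (SE 0.0899, adjusted p = 4.96e-06) relative to the nearest line. Trpc6, a cation channel opened by diacylglycerol, had 0.0197 and 0.0132 FPKM, against 9.20 and 15.8 in CBE-/- (1), 10.2 and 14.3 in CBE-/- (2) and 6.52 and 5.53 in WT (difference -2.79, SE 0.254, adjusted p = 0.00362). Its relative Trpc4 went the other way, with 2.92 and 4.51 FPKM in the Eµ-deleted libraries and 0.365 to 0.498 in the others (difference 1.65, SE 0.158, adjusted p = 0.00437). Trpc4 was named after its values were seen and passed the filter only through the Eµ-deleted libraries. All 4 calls held in every leave-out.

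Adcy6 and Plch1, enzymes that make second messengers, also fell. Adcy6, an adenylyl cyclase that makes cyclic AMP, had 0.681 and 0.544 FPKM in the Eµ-deleted libraries, against 6.71 to 9.71 in the other 6 (difference -2.34, SE 0.105, limma adjusted p = 0.000125). Plch1, a phospholipase C that makes diacylglycerol and inositol trisphosphate, had 0.00554 and 0.0146 FPKM, against 3.94 to 4.75 in the other 6 (difference -2.31, SE 0.0997, adjusted p = 0.000105). In both the other lines lay close together and the Eµ-deleted line near 0. Each call held in all 8 leave-outs.

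Genes were counted as switched off where both Eµ-deleted libraries were under 0.1 FPKM and all 6 others at 1 or more. There were 12, or 23 with a limit of 0.5 FPKM. Beside Trpc6 and Plch1 they included Pcbd1, an enzyme of the tetrahydrobiopterin cycle, and Syde1, a GTPase-activating protein. Pcbd1 had 0.0271 and 0 FPKM, against 3.46 to 7.82 in the other 6, and Syde1 had 0.0109 and 0, against 2.93 to 5.74. They differed by -2.21 (SE 0.0998, limma adjusted p = 0.000125) and -2.20 (SE 0.173, adjusted p = 0.00160) and were called in all 8 leave-outs. Calhm2 (an ion channel), Tcaim (a mitochondrial protein) and the unnamed 2510002D24Rik and 5930430L01Rik were also called in all 8. Plekhg3, an exchange factor for small GTPases, lost its call (adjusted p = 0.00780) without Eµ-deleted replicate 2 or either WT library, with adjusted p up to 0.0853. Mir692-2a and Mir692-2b, on chromosomes 4 and 13, carried the same values in every library, as copies whose reads cannot be told apart would, and were not called (adjusted p = 0.193).

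Akr1c13 and Akr1c12, neighbouring genes of aldo-keto reductases, which reduce aldehydes and ketones, were among the 12 largest falls. Akr1c13 had 9.78 and 9.05 FPKM in the Eµ-deleted libraries, against 89.0 and 87.2 in CBE-/- (1), 49.5 and 46.1 in CBE-/- (2) and 99.2 and 98.7 in WT. Akr1c12 had 1.25 and 1.14 FPKM, against 28.6 and 24.8 in CBE-/- (1), 8.46 and 8.46 in CBE-/- (2) and 42.4 and 40.0 in WT. Both genes kept the order Eµ-deleted, CBE-/- (2), CBE-/- (1), WT from low to high, without overlap. They fell by 2.23 (SE 0.0860, limma adjusted p = 6.00e-05) and 2.11 (SE 0.102, adjusted p = 0.000150) relative to CBE-/- (2), in all 8 leave-outs. Because these paralogs are close copies, reads may have been shared between them, and their separate values are uncertain. The other 7 listed genes of this family did not pass the filter.

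Their promoters (GRCm38.p6, Akr1c12 at chr13:4279350-4279649, minus strand, and Akr1c13 at chr13:4190937-4191236, plus strand) are printed to show how alike the copies are.
Akr1c12 promoter: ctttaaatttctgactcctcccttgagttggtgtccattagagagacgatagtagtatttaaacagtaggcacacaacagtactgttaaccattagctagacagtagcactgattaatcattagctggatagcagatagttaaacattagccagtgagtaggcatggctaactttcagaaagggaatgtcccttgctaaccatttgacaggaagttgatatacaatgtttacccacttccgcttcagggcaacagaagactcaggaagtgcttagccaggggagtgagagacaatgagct
Akr1c13 promoter: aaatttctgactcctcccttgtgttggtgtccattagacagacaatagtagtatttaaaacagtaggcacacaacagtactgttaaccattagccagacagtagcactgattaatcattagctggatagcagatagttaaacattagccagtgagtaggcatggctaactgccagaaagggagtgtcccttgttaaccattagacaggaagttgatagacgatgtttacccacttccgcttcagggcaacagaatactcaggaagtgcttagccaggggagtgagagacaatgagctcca
They had the same base at 284 of 296 ungapped positions (95.9%). Both are poor in CpG, with an observed over expected ratio of 0.150 and 0.141, against a median of 0.797 for tested genes.

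Among glutathione enzymes, Gstt2, a theta class transferase, had 3.39 and 2.73 FPKM in the Eµ-deleted libraries, against 19.5 and 19.1 in CBE-/- (1), 17.7 and 17.8 in CBE-/- (2) and 48.2 and 49.5 in WT (difference -2.21, SE 0.104, limma adjusted p = 0.000148). Glo1, which clears methylglyoxal with glutathione, had 26.6 and 24.2 FPKM, against 55.7 to 62.1 in the other 6 (difference -1.13, SE 0.0851, adjusted p = 0.00131). Both were below the others without overlap, and both calls held in all 8 leave-outs. The membrane-bound transferases Mgst2 (69.7 and 89.2 FPKM, against 176 to 244) and Mgst3 (2.87 and 1.84 FPKM, against 8.24 to 13.5) were lower by 1.20 and 1.66. Their calls (adjusted p = 0.0165 and 0.0219) were less stable. Mgst2 lost its call without any single WT or CBE-/- (2) library (adjusted p up to 0.154), and Mgst3 kept its own only without Eµ-deleted replicate 1 (adjusted p up to 0.177 in the rest). Of 31 genes of glutathione and aldehyde metabolism, a set put together after these values were seen, 18 were tested. Against each line 4 were called lower and 0 higher, where 0.572% and 0.463% of all genes tested were. Against the mean of the others 7 were called lower and 2 higher, where 8.70% and 6.96% of all genes tested were. The median difference was -0.07, with members on both sides.

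Mitochondrial fatty acid oxidation contributed 3 falls among 21 tested genes, where 0.572% of all genes tested fell. This set, too, was chosen after the values were seen. Relative to the mean of the others, 6 were called lower and 1 higher, where 8.70% and 6.96% of all genes tested were. The median difference of the set from that mean was -0.125. Eci1, an isomerase for unsaturated fatty acids, had 0 and 0.0398 FPKM in the Eµ-deleted libraries, against 5.22 and 6.51 in CBE-/- (1), 11.5 and 13.4 in CBE-/- (2) and 2.11 and 1.89 in WT. It was switched off by the definition above (difference -1.56, SE 0.129, limma adjusted p = 0.00209, all 8 leave-outs). Acat1, which splits acetoacetyl-CoA, had 20.5 and 15.7 FPKM, against 34.1 to 54.0 in the other 6. Acaa2, the last enzyme of the oxidation cycle, had 24.5 and 23.0 FPKM, against 36.3 to 44.0. The calls of Acat1 (adjusted p = 0.0274) and Acaa2 (adjusted p = 0.0330) were kept only without Eµ-deleted replicate 1, with adjusted p up to 0.177 and 0.287 in the other leave-outs.

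The GIMAP genes, GTPases of lymphocytes that lie in a cluster on chromosome 6, held 2 falls among 8 tested members, where 0.572% of all genes tested fell. Gimap4 was called higher against the mean of the others (adjusted p = 0.0413) and overlapped CBE-/- (2). Gimap7 had 1.50 and 1.66 FPKM, against 3.96 to 5.72 in the others (difference -1.01, SE 0.105, limma adjusted p = 0.00678), and Gimap6 had 35.1 and 40.3 FPKM, against 62.6 to 99.0 (difference -0.80, SE 0.106, adjusted p = 0.0198). The call of Gimap7 was lost without WT replicate 1 or CBE-/- (2) replicate 1 (adjusted p up to 0.0853). That of Gimap6 was kept only without either Eµ-deleted library (adjusted p up to 0.187 in the rest). Gimap9 lay below all others but missed the threshold (adjusted p = 0.0522, or 0.00933 with the replicate block), and the remaining 5 members overlapped other libraries. These genes, too, were chosen after their values were seen.

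The 30 gene lists used here cover pathways and cell types that such lines could differ in. Shares below are of tested list genes that lay outside the other 6 libraries, to be read against 7.86% higher and 8.50% lower over all genes tested. Genes of the lists not called against each line are named, here and below, after their values were seen. Polycomb and DNA methylation genes, which silence chromatin, had 8 of 30 higher and 0 lower. In this list, 4 were called higher against the mean of the other lines, where 6.96% of all genes tested were. Phf19, a polycomb recruiting subunit, had 17.2 and 21.6 FPKM in the Eµ-deleted libraries, against 11.5 and 13.6 in CBE-/- (1), 11.4 and 12.1 in CBE-/- (2) and 5.93 and 5.56 in WT (difference from the mean 0.95, SE 0.112, limma adjusted p = 0.00226, all 8 leave-outs). Ezh2, the histone methyltransferase of the complex, had 295 and 350.0 FPKM, against 194 to 244 in the other 6 (difference 0.51, SE 0.110, adjusted p = 0.0254). The calls of Ezh2 and Suz12 were lost without Eµ-deleted replicate 2, any WT library or either CBE-/- (2) library, with adjusted p up to 0.202. None of the list was called against each line.

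Interferon response genes had 9 of 41 tested genes lower and 1 higher. Against the mean of the others, 9 were called lower and 4 higher, where 8.70% and 6.96% of all genes tested were. Ifit2, an RNA-binding antiviral protein, had 6.18 and 6.95 FPKM in the Eµ-deleted libraries, against 8.96 and 8.51 in CBE-/- (1), 10.3 and 10.1 in CBE-/- (2) and 14.6 and 13.6 in WT (difference from the mean -0.64, SE 0.0790, limma adjusted p = 0.00270, all 8 leave-outs). Isg20, an exonuclease (7.51 and 4.11 FPKM, against 10.6 to 17.6), and Ifi47, an immunity-related GTPase (47.4 and 33.4 FPKM, against 53.7 to 82.8), were lower by 1.18 and 0.80. Both calls (adjusted p = 0.0137 and 0.0153) were lost without Eµ-deleted replicate 2 (adjusted p = 0.0698 and 0.0763). Bst2, which blocks release of enveloped viruses, lay above all others, with 7.83 and 11.1 FPKM in the Eµ-deleted libraries, against 2.70 to 6.69 in the others. Its rise against the mean (adjusted p = 0.00776) was lost without Eµ-deleted replicate 2 (adjusted p = 0.0509). Aim2, a sensor of cytosolic DNA, was also called higher against the mean, with 10.4 and 11.3 FPKM, against 22.3 and 19.8 in CBE-/- (1), 0.0228 and 0.0631 in CBE-/- (2) and 1.67 and 1.78 in WT (difference 1.58, SE 0.0831, adjusted p = 7.51e-05, all 8 leave-outs), so it lay below CBE-/- (1) and above the rest. Gbp5 (adjusted p = 0.0177) and Oas1a (adjusted p = 0.0419) were called higher too, overlapped or lay below another line, and reached adjusted p of 0.108 and 0.104 in leave-outs. Against each line no gene of this list was called, but Isg20 was with the replicate block (adjusted p = 0.0417).

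Early B lineage transcription factors had 8 of 34 tested genes higher and 2 lower, with Gfi1 alone called against each line. The list of surface and signalling genes of B precursors had 2 of 30 higher and 3 lower, and none was called against each line. Enpep was not on that list. Within it, Bst1 (BP-3), a surface enzyme of B precursors, had 183 and 240.2 FPKM in the Eµ-deleted libraries, against 79.6 to 150.1 in the others (difference from the mean 0.96, SE 0.129, limma adjusted p = 0.00404). Blk, a Src family kinase of B cells, had 69.3 and 65.7 FPKM, against 93.7 to 162 (difference -0.73, SE 0.111, adjusted p = 0.00632). Both genes were set apart in every library, in opposite directions, and both calls held in all 8 leave-outs. The p53, stress response, cholesterol, tumour suppressor, proliferation and housekeeping lists had at most 1 gene on either side and none called against each line.

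Single genes of other lists were called. Gpr132, a proton-sensing receptor, and Fzd7, a Wnt receptor, were higher. Il33, a nuclear alarmin, Anxa1, a phospholipid-binding protein, S100a1, a calcium sensor, and Hoxb4, a stem cell regulator, were lower. Anxa1 had 12.5 and 10.8 FPKM in the Eµ-deleted libraries, against 25.8 and 24.9 in CBE-/- (1), 24.9 and 23.6 in CBE-/- (2) and 85.3 and 77.9 in WT (difference -0.998, SE 0.103, limma adjusted p = 0.00658), and lost its call without either CBE-/- (2) library (adjusted p = 0.0896 and 0.0687). Il33 had 1.43 and 1.35 FPKM, against 5.30 to 9.53 in the others (difference -1.77, adjusted p = 0.0165), and was called only without either CBE-/- (1) library (adjusted p up to 0.127 in the rest). S100a1 lost its call (adjusted p = 0.0115) without WT replicate 1 (0.0883). Fzd7 (adjusted p = 0.0213) was lost without either Eµ-deleted or WT library or CBE-/- (1) replicate 1 (up to 0.129), and Hoxb4 (adjusted p = 0.0456) in all 8 leave-outs (up to 0.172).

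**Figure D4:**
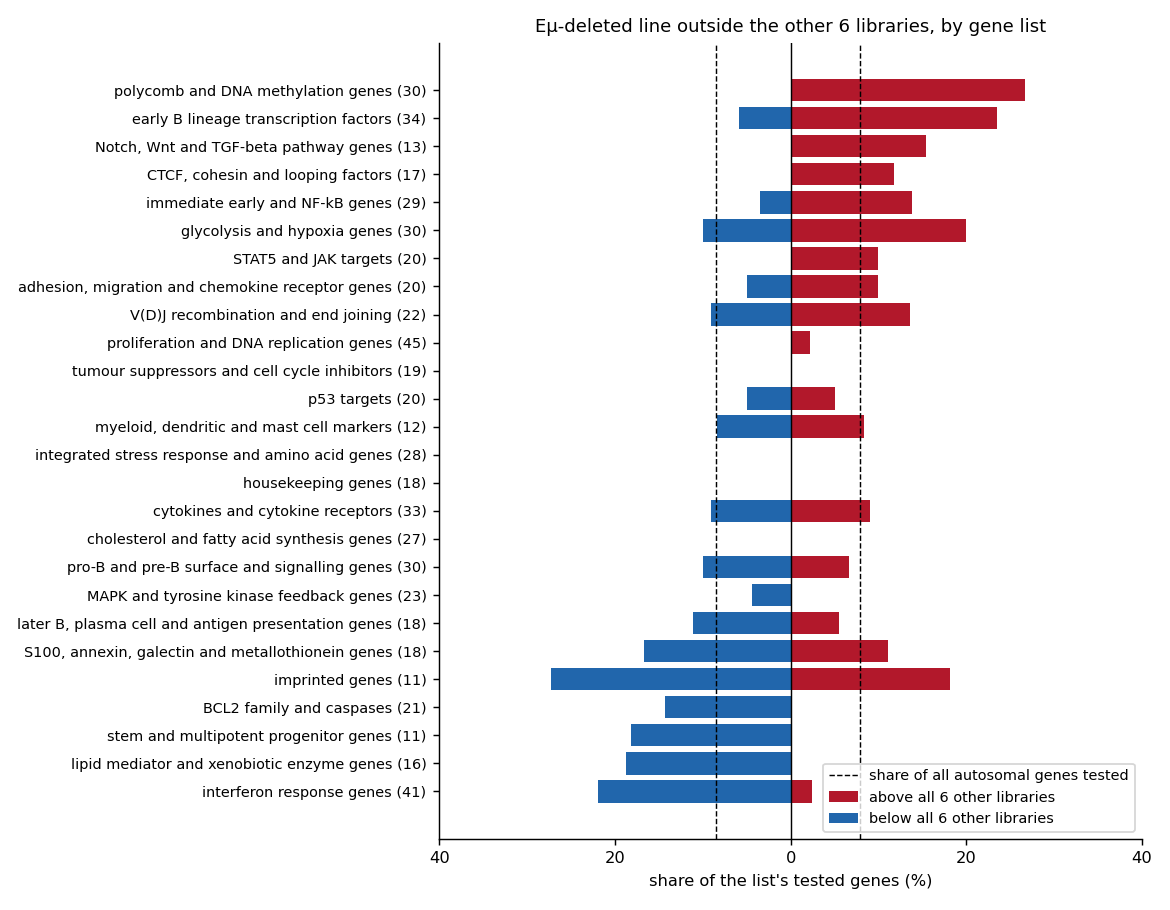
Share (%) of tested genes of each list with both Eµ-deleted libraries above (red, right) or below (blue, left) all 6 others, for the 26 lists with at least 10 tested genes (number in parentheses). Dashed lines mark the shares over all autosomal genes tested, 7.86% above and 8.50% below, and the polycomb list reaches furthest to the right.

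Marker genes of other cell types were read as sums of their FPKM. Summed over the marker list, T lineage genes had 204.5 to 233.9 FPKM in the Eµ-deleted libraries, against 181.3 to 390.7 in the others, and myeloid genes 44.8 to 66.3, against 30.9 to 122. Natural killer cell genes had 1.19 to 1.88 FPKM, against 1.41 to 5.35, and stromal genes 315.5 to 356.7, against 194.4 to 361.1. These 4 ranges overlapped, and the part of such cells in the results was not tested. Lat made up most of the T lineage sum. Vim made up most of the stromal sum, with 303.7 and 253.5 FPKM in the Eµ-deleted libraries, against 136 to 297.7 in the others. Pecam1 and Eng of the stromal list were also on, while Dcn, Pdgfra and Krt8 were listed at 0 in all 8 libraries. The erythroid and megakaryocyte list was higher, at 226.8 to 264.5 FPKM, against 111.6 to 213.6. Car2, a carbonic anhydrase that other cells also express, made up most of that sum with 171 and 180.4 FPKM, against 55.5 to 106 in the other 6 (difference 0.75, SE 0.0987, limma adjusted p = 0.0198). Its call was lost without Eµ-deleted replicate 2 or any single WT or CBE-/- (2) library (adjusted p up to 0.202). Slc4a1 and Car1 were listed at 0 in all 8 libraries, and the globin genes stayed under 0.1 FPKM.

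The chosen genes were spread over all autosomes, with the most uneven shares on chromosomes 18, 13 and 19. On chromosome 13, 64 of 423 tested genes were lower (15.1%), against 8.50% over all autosomes. In the stretch from 30 to 50 Mb (mm9, first gene start 30632181, last gene end 49829636), 27 of 65 tested genes were lower (41.5%) and 0 higher. Of 65 genes, 55 lay below 0 relative to the mean of the other lines, and 28 were called lower and 3 higher in that comparison, where 8.70% and 6.96% of all genes tested were. The median log2 difference was -0.56 to CBE-/- (1), -0.18 to CBE-/- (2) and -0.47 to WT. Falls there were thus moderate, shared by neighbours and smallest relative to CBE-/- (2). The stretch was picked after the values were seen, and no test was made on it.

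Psmg4 and Pak1ip1 are examples from this stretch, named after their values were seen. Psmg4, a proteasome assembly chaperone, had 34.3 and 27.8 FPKM in the Eµ-deleted libraries, against 62.4 and 65.6 in CBE-/- (1), 49.0 and 44.1 in CBE-/- (2) and 67.7 and 67.0 in WT. Pak1ip1, a ribosome biogenesis factor, had 31.1 and 26.8 FPKM, against 54.3 and 56.5 in CBE-/- (1), 43.4 and 39.8 in CBE-/- (2) and 47.8 and 46.5 in WT. In both, CBE-/- (2) stood between the Eµ-deleted line and the rest. They differed from the mean of the others by -0.90 (SE 0.0977, limma adjusted p = 0.00161) and -0.71 (SE 0.0834, adjusted p = 0.00226), in all 8 leave-outs. Nedd9, a scaffold protein of adhesion signalling, was the gene of the stretch called against each line, with 14.7 and 14.9 FPKM, against 30.6 and 29.1 in CBE-/- (1), 45.9 and 37.7 in CBE-/- (2) and 27.0 and 26.4 in WT. That call (difference -0.81, SE 0.111, adjusted p = 0.0233) was kept only without either CBE-/- (2) library (adjusted p up to 0.192 in the rest).

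**Figure D5:**
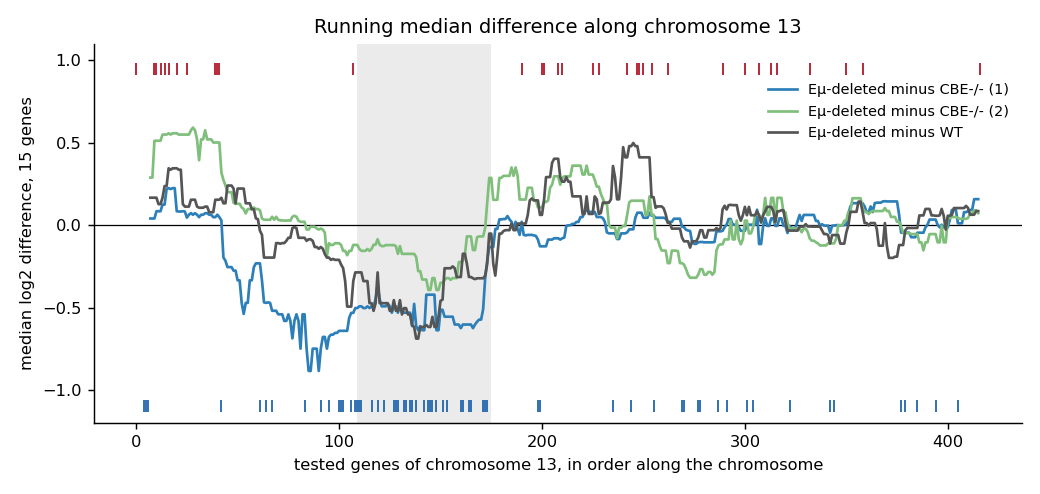
Running median over 15 neighbouring tested genes of the log2 difference of the Eµ-deleted line to CBE-/- (1), CBE-/- (2) and WT (lines), for the 423 tested genes of chromosome 13 in their order. Red ticks (top) and blue ticks (bottom) mark genes with both Eµ-deleted libraries above or below all others, the shaded stretch holds the 65 genes from 30 to 50 Mb, and all 3 curves lie below 0 over most of it.

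Chromosome 18 had a larger share of lower genes, 54 of 256 (21.1%), with 7 higher (2.73%). The median difference was -0.30 to WT, -0.45 to CBE-/- (1) and 0.01 to CBE-/- (2). The Eµ-deleted line and CBE-/- (2) thus did not differ there in the median. On chromosome 19, 39 of 385 tested genes were lower (10.1%) and 14 higher (3.64%). Its median difference was -0.41 to WT, 0.005 to CBE-/- (1) and -0.007 to CBE-/- (2). The longest run of neighbouring tested genes that were all lower had 6 members, on chromosome 8 (mm9, 13105721 to 13322924), from Cul4a, a ubiquitin ligase scaffold, and Lamp1, a lysosomal membrane protein, to Tmco3. Lamp1 had 66.2 and 62.5 FPKM in the Eµ-deleted libraries, against 83.8 and 91.5 in CBE-/- (1), 119 and 124 in CBE-/- (2) and 97.9 and 101 in WT (difference from the mean -0.65, SE 0.0734, limma adjusted p = 0.00184). None of the 6 was called against each line, and Lamp1 was named after its values were seen. The longest run of higher genes had 4 members, on chromosome 16.

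Close to the deleted enhancer, within 2 Mb of the Adam6 genes on chromosome 12, 31 genes were tested. Of these, 6 lay above and 2 below all other libraries, where 7.86% and 8.50% of all genes tested did, and Gpr132 was the gene called against each line. Gpr132 (mm9, 114089087 to 114099127) had 5.39 and 5.47 FPKM in the Eµ-deleted libraries, against 0.0592 and 0.0588 in CBE-/- (1), 0.588 and 0.578 in CBE-/- (2) and 1.58 and 1.25 in WT. It was highest in the Eµ-deleted line and lowest in CBE-/- (1), with no overlap among the 4 lines. The difference to WT, the nearest, was 1.42 (SE 0.0974, limma adjusted p = 0.000850), in all 8 leave-outs. The median of the 31 genes, relative to the mean of the other lines, was 0.08, against 0.00 over all genes tested.

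The promoters of the called genes were described by their CpG content and by short motifs. RefSeq promoters of 300 bases (GRCm38.p6) were matched by symbol for 7587 of the 10146 genes tested, for 34 of the 47 called higher and for 42 of the 58 called lower. An observed over expected CpG ratio of at least 0.6 was found in 61.8% (21 of 34) of those called higher and 42.9% (18 of 42) of those called lower, against 77.5% of promoters of tested genes. Called genes were also expressed at lower levels, with a median over genes of the mean FPKM of 1.73 for those called higher and 5.17 for those called lower, against 13.7 for all genes tested, and the part of level in the CpG shares was not tested. The octamer ATGCAAAT, the binding letters of Oct factors that act on immunoglobulin promoters and Eµ, was in 0 of the 34 and 0 of the 42 promoters, against 1.38% of those of tested genes. CAGGTG, an E box, was in 9 of 34 (26.5%) and 3 of 42 (7.14%), against 15.9%, and TGANTCA, the AP-1 letters, in 5 of 34 (14.7%) and 2 of 42 (4.76%), against 4.3%. TATAAA, the TATA box letters, was in 5 of 34 (14.7%) and 7 of 42 (16.7%), against 6.23% of promoters of tested genes. All motifs were searched on both strands, and a match is a description of these letters only.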

How the data were processed

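RNA of 8 libraries from 4 mouse pro-B cell lines was sequenced as stranded poly(A) libraries on an Illumina NextSeq, per the labels' protocols. TopHat, Cufflinks and the build mm9 are named in the submitters' processing notes, with versions not given in the sources used here. FPKM were deposited by the authors for each gene, with an interval and a status per library. FPKM of symbols with several loci were summed, 21 symbols whose status was not OK throughout were left out, and implied reads were derived from the intervals. Genes with at least 1 FPKM in at least 2 of 8 libraries (10479, of them 10146 autosomal) were fitted with limma 3.58.1 (R 4.3.3, trend) on log2(FPKM + 1) over all 4 lines, with Benjamini-Hochberg adjustment over all genes fitted. Against each line, the largest of 3 p-values was used, with 1 sign in all 3. The labels give both libraries of a line the numbers 1 and 2 without saying what a number shares. Same-numbered libraries deviated together in all 6 pairs of lines (correlation 0.288 to 0.503), so counts with a replicate block are printed beside the others. The text names the 12 largest rises and falls to the nearest line, switched genes and called genes of the lists, and further genes are said to be chosen after their values were seen. The chosen genes and the lists were set with earlier results of these data known. Results for a few genes are not reported here. The procedure was also run on simulated data with independent noise. Unchanged genes lay there at the mean of the other lines, so genes equal to their nearest line alone were not tried.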

Additional observations from a re-analysis of the deposited data

How the results depend on the processing

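In the counts of genes, the 105 calls against each line became 71 higher and 33 lower with no filter on low values, 12 and 26 with a mean of at least 5 FPKM, and 69 and 96 with the replicate block. Against the mean of the other lines, the counts were 362 higher and 370 lower with a mean of at least 5 FPKM, and 1284 and 1452 with the replicate block. Requiring a 2-fold difference left 186 higher and 205 lower against the mean and 32 and 35 against each line. Requiring a gap of at least 0.1 (log2) to the nearest library left 453 higher and 489 lower of all chosen genes, and 373 and 458 of those tested. With a limit of 0.5 FPKM in place of 0.1, 15 genes were switched on and 23 off. With each library left out in turn, the chosen genes ranged over 1183 to 3619 higher and 1143 to 2704 lower, those tested over 829 to 2712 and 905 to 2351, calls against the mean over 323 to 1371 and 525 to 1281, calls against each line over 30 to 87 and 24 to 71, and switched genes over 4 to 8 on and 12 to 16 off. Without Eµ-deleted replicate 1 the counts were 3619 and 2704 chosen, 1371 and 1281 against the mean and 87 and 71 against each line. Without Eµ-deleted replicate 2, 323 and 525 were called against the mean. Without WT replicate 1 or 2, or CBE-/- (2) replicate 1 or 2, 384 to 419 rose and 559 to 575 fell against the mean, and 30 to 31 rose and 24 to 30 fell against each line. The cause was not tested. Of the genes named in the text and fitted both ways, the block changed the calls of Dntt and 1810013L24Rik against the mean (adjusted p = 0.00315 and 0.0423) and those of Gimap9 and Isg20 against each line (0.00933 and 0.0417). For the named genes, 908 values under other settings gave 836 with the same direction and side of the threshold, 70 no longer called, 2 newly called and 0 reversed. With 2 libraries a line, a left-out library leaves 1, assumed to vary like the other lines, and 1 library can decide a call. The filter on the mean dropped some named genes, which then have no value. Alternatives for switched genes under other scalings, statuses and left-out libraries were chosen after seeing the data.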

Other observations

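A set of 25 autosomal genes of cilia and the BBSome was put together after the values were seen. Of these, 9 lay below and 1 above all other libraries, against 8.50% and 7.86% of all genes tested. Over all autosomal symbols, many of them too low to test, the shares were 4.73% and 4.85%. In the set, 23 genes were tested, so the shares of genes tested are the closer background. Relative to the mean of the others, 6 were called lower and 1 higher, where 8.70% and 6.96% of all genes tested were. Against each line 2 were called lower and 1 higher, where 0.572% and 0.463% of all genes tested were, and the median difference from the mean of the others was -0.23 on the log2(FPKM + 1) scale.

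Aes, which encodes a co-repressor that binds Groucho-type proteins, had 43.2 and 37.1 FPKM in the Eµ-deleted libraries, against 2.56 and 3.63 in CBE-/- (1), 12.4 and 12.3 in CBE-/- (2) and 0.0436 and 0.0137 in WT. All 4 lines were apart from each other. The difference to CBE-/- (2) was 1.62 (limma adjusted p = 0.00344), and the call held in all 8 fits that left out 1 library. The gene was chosen after its values were seen.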
